A study of Mus musculus with 15 samples.

Results

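This account covers the T cell receptor (TCR) alpha loops that end in the 8 residues SSNTNKVV. They are the CDR3 peptides (complementarity-determining region 3, the hypervariable loop of the chain, listed without the conserved residues at its ends) whose last residues keep the whole germline end of the joining segment TRAJ34. Members were chosen by this end alone, as read in the deposited lists, and the family was picked for study with earlier results of these data known, so that its summed abundance is a description and carries no test. It holds 994 of the 92219 distinct CDR3 peptides in the 15 libraries. That the end belongs to TRAJ34 is textbook knowledge. The RefSeq gene table of GRCm38.p6 lists Traj34 (gene ID 100124355) between Traj35 and Traj33, and was used only for these names and their order.

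All mice were male C57BL/6 carrying TCRbtg, a fixed transgenic TCR beta chain, so that receptors of different cells differ in their alpha chain. The 5 Tumour libraries came from CD8b+ CD4neg T cells of prostate tumours of TRAMP+/- TCRbtg males aged 27 weeks, sorted without a CD44 or CD122 gate. TRAMP is a transgenic model of prostate cancer, in which a viral oncogene is driven in prostate epithelium. The 5 MP (memory-phenotype) libraries came from CD44hi CD122+ CD8+ T cells, and the 5 Naive libraries from CD44lo CD122neg CD8+ T cells, both of pooled spleen and lymph nodes of TCRbtg mice aged 9 weeks. The submitters' design text speaks of 5 mice for both sorted subsets and does not say which libraries share a mouse. Tumour therefore differs from MP and Naive in tissue, age, TRAMP and sort together, and these cannot be told apart.

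A TCR alpha chain is assembled in the thymus by joining a variable (V) segment to a joining (J) segment, with bases trimmed and added where they meet. The first residues of the loop are mostly given by the V segment, the last by the J segment, and those between by the junction. Naive CD8+ T cells have not yet responded to antigen, whereas memory-phenotype cells carry memory markers without deliberate immunisation, and the study's title names self-specific memory-phenotype cells and their precursors in the thymus.

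The leading loops of each group are shown first, since they differ in the 1 to 4 residues before the shared end. In Tumour libraries these 4 led, of which the last was listed in 1 tumour:
alanine-alanine-serine: AASSSNTNKVV
alanine-alanine-threonine: AATSSNTNKVV
alanine-alanine-serine-glutamate: AASESSNTNKVV
alanine alone: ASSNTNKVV

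In MP libraries these 7 led:
alanine-leucine-glycine: ALGSSNTNKVV
alanine-leucine-alanine: ALASSNTNKVV
alanine-methionine-alanine: AMASSNTNKVV
alanine-methionine-glycine: AMGSSNTNKVV
alanine-methionine-aspartate-proline: AMDPSSNTNKVV
alanine-leucine-valine: ALVSSNTNKVV
alanine-isoleucine-valine-proline: AIVPSSNTNKVV

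In Naive libraries these 4 led:
alanine-valine-serine: AVSSSNTNKVV
alanine-isoleucine-alanine-proline: AIAPSSNTNKVV
alanine-leucine-serine: ALSSSNTNKVV
alanine-leucine-proline: ALPSSNTNKVV

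Libraries held 627205 to 943699 reads in Tumour, 574484 to 881988 in MP and 547665 to 702663 in Naive. The lowest listed count was 2 reads in each library, so that a loop that was not listed had fewer, unless a filter not given in the sources used here removed it. The values are PCR reads without stated molecular identifiers, and floors or intervals given here cover only counting error. Fewer cells of a kind cannot be told apart from less RNA per cell in bulk libraries. The lists hold CDR3s alone and no marker genes, so that the sorted cell types could be checked only through invariant loops, none of which is a member. The invariant loop of NKT cells had 0 reads in the 5 Tumour libraries, at most 5 in MP and at most 2 in Naive. The invariant MAIT loop had 60 reads in Tumour 2 and 0 in the other tumours, against 0 to 38 reads in MP and 81 to 152 reads in Naive.

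The family was a small share of Tumour reads and a large one of MP reads. It made up 1.67, 3.30, 1.34, 3.11 and 1.67% of the reads of Tumour 1 to 5. In MP 1 to 5 its share was 12.8, 15.4, 16.9, 15.3 and 12.9%, and in Naive 1 to 5 it was 4.86, 5.88, 5.21, 5.78 and 4.16%. The means were 2.22 ± 0.910% in Tumour, 14.7 ± 1.77% in MP and 5.18 ± 0.703% in Naive (SD, n = 5 each), and no library of one group reached the range of another.

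The number of distinct members ran in another order. In single libraries, 7 to 35 members were listed in Tumour, 60 to 159 in MP and 271 to 462 in Naive. At a common depth of 547665 reads, the expected numbers were 22.9 ± 11.5 in Tumour, 102 ± 42.9 in MP and 335 ± 77.8 in Naive (SD, n = 5 each). As a part of all distinct CDR3s of a library, members were 1.55 ± 0.637% in Tumour, 1.99 ± 0.784% in MP and 1.42 ± 0.385% in Naive, with overlapping ranges. The groups were thus apart in the family's share of reads and in its number of members, and not in the share of distinct loops that carried the end.

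The end was also compared with its shorter form. Loops that end in NTNKVV but lack 1 or both of the 2 serines before it numbered 2995. They made up 9.42 ± 3.20% of Tumour reads, 4.50 ± 1.34% of MP reads and 4.78 ± 0.724% of Naive reads. Most of these reads lay in loops with another residue in place of 1 serine alone. Such loops held 7.61 ± 2.20% of reads in Tumour, 3.80 ± 1.18% in MP and 3.83 ± 0.508% in Naive. Of all reads that ended in NTNKVV, those with the full end were 8.76 to 25% in Tumour, 69.7 to 79.2% in MP and 50 to 54.4% in Naive, and these ranges do not overlap. By distinct loops the same share was 19.1 ± 6.46% in Tumour, 32.9 ± 5.61% in MP and 29.9 ± 0.853% in Naive, and there MP and Naive overlapped. Loops with 1 other residue elsewhere in the end were rare, with 0.000234% of reads in Tumour, 0.000181% in MP and 0.00326% in Naive.

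**Figure D1:**
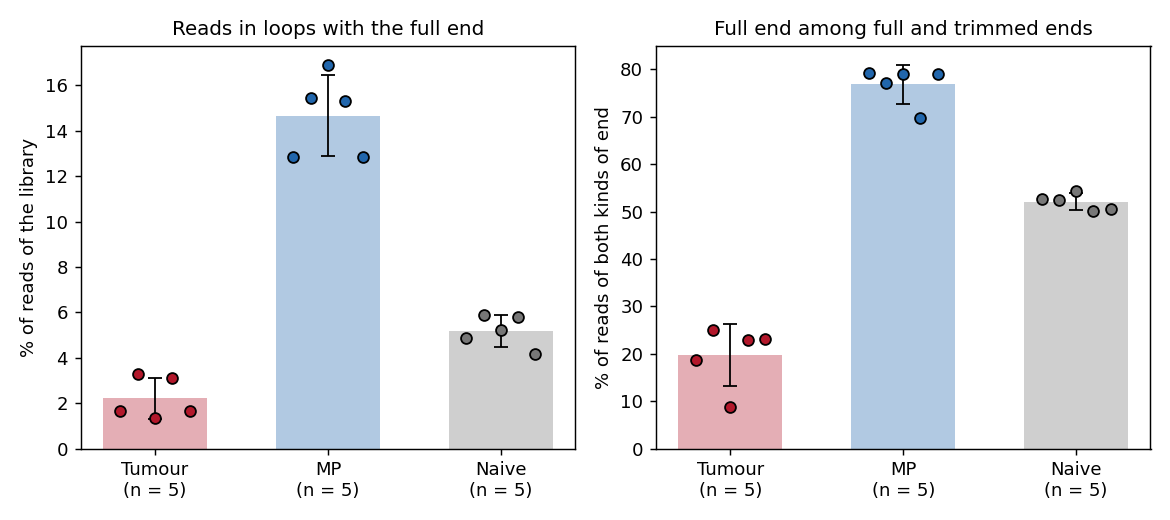
Left, reads in loops ending in SSNTNKVV as % of the reads of a library; right, those reads as % of all reads in loops ending in NTNKVV. Bars are means over 5 libraries, whiskers the SD and points single libraries: in both panels all Tumour points lie below all MP and Naive points, and all MP points above all Naive points.

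Within Tumour and MP libraries a few members held most of the family's reads. The most abundant member took 39.8 ± 8.36% of the family's reads in Tumour, 36.0 ± 2.94% in MP and 13.5 ± 3.15% in Naive. The effective number of members was derived from the Shannon entropy of their shares, as the number of equally abundant members with the same entropy. It was 6.27 ± 2.83 in Tumour, 8.96 ± 1.06 in MP and 37.4 ± 12 in Naive (SD, n = 5 each). To reach 90% of the family's reads took 3 to 11 members in Tumour, 8 to 13 in MP and 31 to 76 in Naive.

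The leading member differed among tumours: AASSSNTNKVV led in Tumour 1 and 3, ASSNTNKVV in Tumour 2, AATSSNTNKVV in Tumour 4 and AAQSSNTNKVV in Tumour 5. It was ALGSSNTNKVV in all 5 MP libraries and AVSSSNTNKVV in all 5 Naive libraries.

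**Figure D2:**
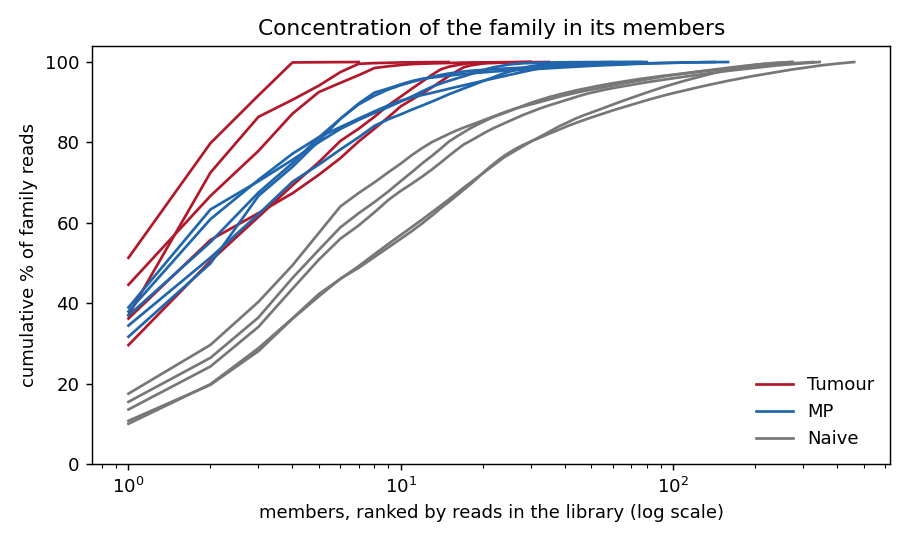
Cumulative % of the family's reads (vertical axis) against the number of members counted, ranked by reads within each library (horizontal axis, log scale); each line is 1 library. The lines reach 90% at 3 to 11 members in Tumour, 8 to 13 in MP and 31 to 76 in Naive.

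The residues before the end differed in kind between the groups. Loops that began with alanine-leucine or alanine-methionine made up most of the family in MP. Alanine-leucine held 0 to 39.1% of the family's reads in Tumour, 55.7 to 75.4% in MP and 30.1 to 36.2% in Naive. Alanine-methionine held 0 to 1.66% in Tumour, 16.0 to 33.7% in MP and 4.95 to 8.35% in Naive. Outside the family, alanine-leucine averaged 10.9% of reads in Tumour, 35.3% in MP and 30.0% in Naive, and alanine-methionine 8.65, 6.92 and 5.77%, so that MP members held more of both than the other MP loops did.

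Alanine-alanine was the main beginning in tumours and nearly missing in MP. It took 48.1 to 88.1% of the family's reads in Tumour, 0.147 to 0.453% in MP and 2.82 to 4.58% in Naive. In the loops outside the family the same beginning took 35.9 to 56.9% of reads in Tumour, 22.3 to 32.0% in MP and 27.7 to 34.6% in Naive. Members in MP and Naive libraries therefore held far less of it than other loops of the same libraries, whereas the ranges inside and outside the family overlapped in Tumour.

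Alanine-isoleucine and alanine-valine marked the Naive members. Alanine-isoleucine held 2.83 ± 4.88% of the family's reads in Tumour, 5.56 ± 3.12% in MP and 23.3 ± 2.13% in Naive, where the other Naive loops had 5.51 ± 0.447% (SD, n = 5 each). Alanine-valine held 0.655 ± 0.885% in Tumour, 0.404 ± 0.108% in MP and 14.8 ± 3.17% in Naive, where the other Naive loops had 12.9 ± 0.968%. Counted by distinct members, alanine-valine was 7.24% of the family in Tumour, 11% in MP and 9.00% in Naive, so that its low share of MP reads came with many MP members of few reads.

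The residue just before the end also differed between MP and Naive. Glycine stood there in 0.501 ± 0.717% of the family's reads in Tumour, 41.4 ± 2.31% in MP and 4.63 ± 0.339% in Naive. Alanine stood there in 13.8 ± 24.0% in Tumour, 32.6 ± 2.43% in MP and 2.62 ± 0.308% in Naive, and the Tumour value rests on Tumour 2 with 55.9%. Both small residues together thus took most MP reads of the family, and few Naive ones.

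Proline, serine and the hydrophobic residues took their place in Naive libraries. Proline held 3.28 ± 4.80% of the family's reads in Tumour, 10.1 ± 3.06% in MP and 29.5 ± 2.70% in Naive. Serine held 28.1 ± 17.9% in Tumour, 3.38 ± 1.56% in MP and 26.4 ± 4.24% in Naive. Hydrophobic residues held 4.88 ± 3.78% in Tumour, 10.9 ± 1.93% in MP and 26.4 ± 1.87% in Naive (SD, n = 5 each). MP and Naive did not overlap in any of these 3 classes.

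Threonine before the end held 5.45 to 40.4% of the family's reads in Tumour, 0.00354 to 0.702% in MP and 3.45 to 4.33% in Naive. Acidic residues held 0 to 14.2% in Tumour, 0.124 to 1.30% in MP and 1.98 to 3.07% in Naive. Basic residues were rare in reads, with 0.527% in Tumour, 0.566% in MP and 3.31% in Naive, although 140 of the 994 members carried one.

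By distinct members the differences were smaller in most classes. Glycine stood before the end in 5.14 ± 3.74% of distinct members in Tumour, 14.2 ± 2.24% in MP and 9.98 ± 0.787% in Naive. Alanine did so in 9.05 ± 6.41% in Tumour, 16.2 ± 4.31% in MP and 6.36 ± 1.17% in Naive. The direction between MP and Naive was kept, and every MP library lay above every Naive library in both classes. For serine it turned: by distinct members it was 11.7% in Tumour, 12.3% in MP and 7.62% in Naive. Members of few reads weigh fully in these shares. In MP, 19 of the 22 members 1 residue away from ALGSSNTNKVV had at most 1% of its reads in a library. For ALASSNTNKVV in MP it was 20 of 25, and for AVSSSNTNKVV in Naive 27 of 31. Whether such members are reading errors was not tested, and the shares were not computed without them.

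**Figure D3:**
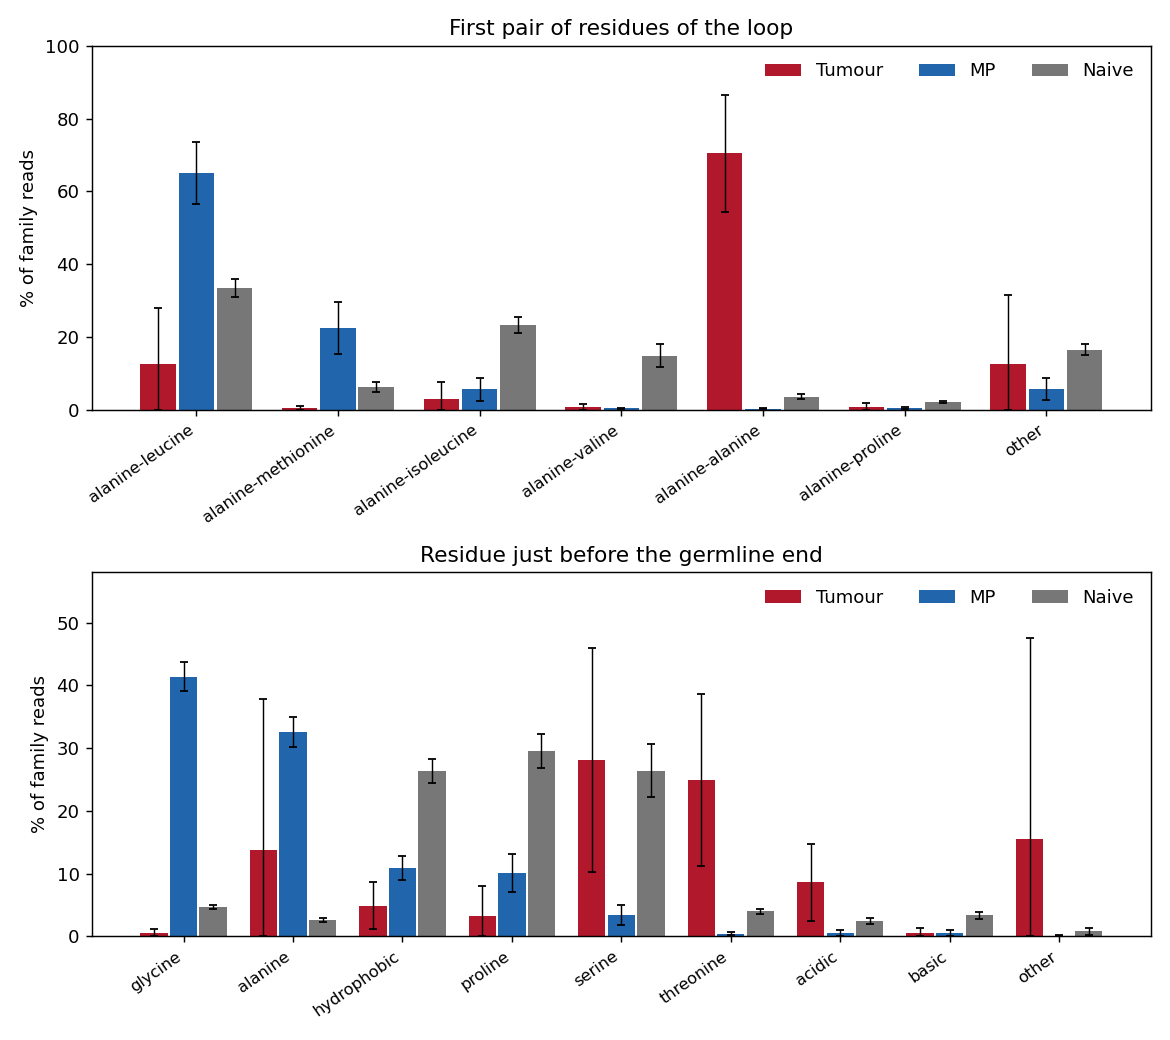
Share of the family's reads (vertical axes, %) by the first 2 residues of the loop (top) and by the residue just before SSNTNKVV (bottom); bars are means over 5 libraries and whiskers the SD, drawn no lower than 0. Tumour reads lie mostly in loops beginning with alanine-alanine, at 48.1 to 88.1%, and MP reads in loops beginning with alanine-leucine, at 55.7 to 75.4%, and with glycine or alanine before the end.

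Loops of 11 residues, with 3 residues before the end, dominated in reads. They held 71.2 ± 20.9% of the family's reads in Tumour, 82.6 ± 5.71% in MP and 60.1 ± 3.66% in Naive, against 45.2, 22.5 and 30.3% of the reads of all other loops in Tumour, MP and Naive. MP and Naive did not overlap, with 74.4 to 89.5% and 55.3 to 64.1%. With ALGSSNTNKVV left out of the family, 11-residue members held 71.2 ± 20.9% of the remaining reads in Tumour, 72.9 ± 8.40% in MP and 59.3 ± 3.59% in Naive, and the MP and Naive ranges overlapped, at 60.9 to 83.0% and 54.6 to 63.3%. The mean length by reads was nearly the same in all groups, 10.99 ± 0.452 residues in Tumour, 11.06 ± 0.0398 in MP and 11.05 ± 0.0892 in Naive.

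The lengths around it differed. Loops of 10 residues held 1.89 ± 3.26% of the family's reads in Tumour, 5.58 ± 3.45% in MP and 17.8 ± 2.63% in Naive. Loops of 12 residues held 17.8 ± 12.9% in Tumour, 11.2 ± 3.44% in MP and 20.8 ± 5.52% in Naive. Loops of 9 residues were listed in 1 Tumour library, where they reached 44.7% of the family's reads through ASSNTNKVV. Among the 994 members of all libraries pooled, 416 had 12 residues and 258 had 11. By mean share of a library's distinct members, 12 residues led in Naive alone, with 40.3% against 35.9% for 11 residues. In Tumour, 11 residues held 58.1% of distinct members and 12 residues 32.2%, and in MP 50.9 and 25.2%. The bare end SSNTNKVV, without a residue before it, was listed in no Tumour or MP library and in all 5 Naive libraries, at 0.000712 to 0.00366% of Naive reads.

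**Figure D4:**
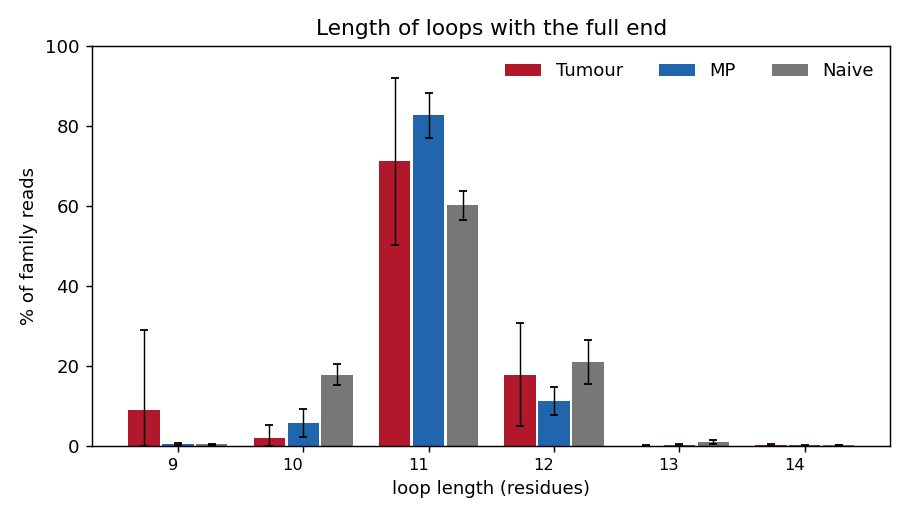
Share of the family's reads (vertical axis, %) by loop length in residues (horizontal axis); bars are means over 5 libraries and whiskers the SD, drawn no lower than 0. Loops of 11 residues hold 71.2% in Tumour, 82.6% in MP and 60.1% in Naive, and the Tumour bar at 9 residues comes from Tumour 2.

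The first comparison asks which single members differ between MP and Naive. Each CDR3 with at least 10 reads in at least 3 of the 10 libraries was tested with edgeR, and called at an adjusted p under 0.05 over all CDR3s tested. Of the 974 members listed in either subset, 135 could be tested. Of these, 16 were higher in MP, which is 11.9% against 12.6% of all 5954 CDR3s tested. Another 56 were lower in MP, which is 41.5% against 48.1% of all. The shares are near the background, so that the family's place in MP lies in the size of a few members and not in how many of them were called. The 16 higher members summed to 12.8% of reads in MP and 0.230% in Naive. The 56 lower ones summed to 0.0318% in MP and 2.83% in Naive. The median log2 fold change was -1.84 over the members tested and -3.35 over all CDR3s tested. Members not tested had too few reads, and a low member could pass only where 1 subset held it in several libraries.

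ALGSSNTNKVV was the most abundant member of the whole series. It was not listed in any Tumour library. Its share was 4.75, 5.33, 6.59, 5.82 and 4.08% of reads in MP 1 to 5, against 0.110, 0.0953, 0.0914, 0.0827 and 0.110% in Naive 1 to 5. The subsets are far apart and each varies little, and the member was higher in MP by 5.76 ± 0.37 on the log2 scale (edgeR's quasi-likelihood test, adjusted p = 5.59e-05). For every log2 fold change, the value after ± is a standard error derived from the fold change and its test statistic, not an SD over libraries. Against 3 reads per library, Tumour was at least 13618-fold lower than MP and at least 251-fold lower than Naive, both called (edgeR adjusted p = 0.0101 and 1.27e-05).

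ALASSNTNKVV, which replaces the glycine by alanine, was the next in MP. It had no listing in Tumour. It held 2.34, 2.61, 4.12, 3.52 and 2.34% of reads in MP 1 to 5, against 0.00213, 0.0115, 0.000696, 0.0226 and 0.00251% in Naive 1 to 5. The lowest MP library lies far above the highest Naive library, and the difference was 8.56 ± 1.13 on the log2 scale (edgeR adjusted p = 0.000662). Tumour was at least 7656-fold lower than MP.

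The methionine counterparts followed. AMASSNTNKVV, without a Tumour listing, held 1.58, 1.67, 1.19, 1.49 and 2.16% of reads in MP 1 to 5, against 0.000996, 0.0387, 0.0268, 0.0241 and 0% in Naive 1 to 5. AMGSSNTNKVV, listed in Tumour 1 alone of the tumours at 0.0277%, held 0.822, 0.580, 0.559, 0.629 and 0.929% in MP 1 to 5, against 0, 0.0281, 0.0474, 0.0250 and 0% in Naive 1 to 5. In both loops Naive 1 and 5 were at or near 0 and the other 3 Naive libraries were not. They were higher in MP by 6.48 ± 1.48 and 5.13 ± 1.68 on the log2 scale (edgeR adjusted p = 0.00407 and 0.0235). The call on AMGSSNTNKVV was lost without Naive 2 and without Naive 4, where its highest adjusted p was 0.0516.

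Another 3 of the leading MP members were called. AMDPSSNTNKVV, on 12 residues, held 0.593, 0.661, 0.740, 0.386 and 0.831% of reads in MP 1 to 5, against 0.000285, 0.0111, 0.0124, 0.0156 and 0% in Naive 1 to 5 (log2 fold change 6.35 ± 1.44, edgeR adjusted p = 0.00391). ALVSSNTNKVV held 0.346, 0.468, 0.899, 0.997 and 0.458% in MP, against 0.000854, 0, 0, 0.00760 and 0.00157% in Naive (log2 fold change 8.29 ± 1.64, edgeR adjusted p = 0.00179). AIVPSSNTNKVV held 0.490, 1.24, 0.297, 0.323 and 0.709% in MP, against 0.00171, 0.0557, 0.0893, 0.0896 and 0.0236% in Naive (log2 fold change 3.56 ± 0.94, edgeR adjusted p = 0.00956). MP lay above Naive in every library for all 3 loops. The call on AIVPSSNTNKVV was lost with a block on library number (edgeR adjusted p = 0.0523).

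These 7 loops together held 12.5 ± 1.36% of MP reads, which is 81.3 to 89.5% of the family in each MP library, and 0.206 ± 0.0733% of Naive reads. ALGSSNTNKVV set much of the Naive sum. Without it the other 6 held 0.00598, 0.145, 0.177, 0.184 and 0.0277% of reads in Naive 1 to 5. Naive 1 and 5 were again the lowest. Of the 7, 5 share 1 pattern, alanine, then leucine or methionine, then glycine, alanine or valine before the end. The 6 loops this pattern allows held 77.7 ± 5.11% of the family's reads in MP, 1.76 ± 2.60% in Tumour and 2.92 ± 0.423% in Naive (SD, n = 5 each).

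Lower in rank, 5 further loops were called higher in MP. ALSSNTNKVV, 1 residue shorter than ALGSSNTNKVV, held 0.0730, 0.439, 0.0884, 0.0421 and 0.138% of reads in MP 1 to 5, against 0.0114 to 0.0215% in Naive (log2 fold change 3.23 ± 0.73, edgeR adjusted p = 0.00373). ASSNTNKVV held 0.0155 to 0.119% in MP, against 0.00434 to 0.0101% in Naive (log2 fold change 2.81 ± 0.72, edgeR adjusted p = 0.00764), a call that was lost with no filter on low counts and with a block on library number, at adjusted p of up to 0.240. APISSNTNKVV was listed in all 5 MP libraries at 0.0114 to 0.0234% and in no Naive library. ALALSSNTNKVV and AVWGSSNTNKVV were each listed in 3 MP libraries and in no Naive library.

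The remaining 4 of the 16, TLGSSNTNKVV, SLGSSNTNKVV, DLGSSNTNKVV and TLASSNTNKVV, lack the alanine that opens most members. Each differs by 1 residue from ALGSSNTNKVV or ALASSNTNKVV, and in MP libraries each held 0.0167 to 0.124% of the reads of that loop. They had 7 to 45 reads in each MP library. Whether they are reading errors of the abundant loops was not tested. Loops without the opening alanine were 0 to 13.3% of distinct members in Tumour, 14.1 to 26.3% in MP and 5.54 to 11.6% in Naive, and at most 0.799% of the family's reads in each library.

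Naive libraries were led by other loops. AVSSSNTNKVV held 0.00692, 0.0343, 0, 0 and 0.00672% of reads in MP 1 to 5, against 0.754, 0.591, 0.709, 0.624 and 0.731% in Naive 1 to 5. The subsets do not overlap, and it was lower in MP by -6.15 ± 1.70 on the log2 scale (edgeR adjusted p = 0.0112). In tumours it was listed in Tumour 1 alone, at 0.00388%, and was lower there than in Naive (log2 fold change -9.75 ± 2.26, edgeR adjusted p = 0.00253).

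AIAPSSNTNKVV was listed in Tumour 4 at 0.0891% and in no other tumour, and not in MP. It held 0.487, 0.579, 0.557, 0.483 and 0.446% of reads in Naive 1 to 5, so that MP was at least 1166-fold lower (edgeR adjusted p = 0.000381). ALPSSNTNKVV held 0.00227, 0, 0.0845, 0.00627 and 0% in MP 1 to 5, against 0.477, 0.526, 0.494, 0.464 and 0.378% in Naive 1 to 5 (log2 fold change -4.65 ± 1.83, edgeR adjusted p = 0.0486). All Naive values exceed all MP values by far, yet MP 3 stands above the other MP libraries, and 10 of 18 alternatives ended the call, among them leaving out MP 1, MP 4 or any single Naive library, at adjusted p of up to 0.123.

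Another 3 loops abundant in Naive were not called. ALSSSNTNKVV held 0.131, 0.000587, 0.378, 0.274 and 0.106% of reads in MP 1 to 5, against 0.532, 0.435, 0.512, 0.517 and 0.505% in Naive 1 to 5 (log2 fold change -1.49 ± 1.01, edgeR adjusted p = 0.234). AISSNTNKVV held 0.106, 0.255, 0.232, 0.0320 and 0.202% in MP, against 0.339, 0.356, 0.377, 0.322 and 0.336% in Naive (log2 fold change -1.06 ± 0.56, edgeR adjusted p = 0.124). In both, each MP library lay below each Naive library, and neither passed the test. AFSSNTNKVV held 0.941% in MP 1 and at most 0.00424% in the other MP libraries, against 0.222 to 0.274% in Naive (log2 fold change -0.45 ± 2.09, edgeR adjusted p = 0.870), so that its MP mean rests on MP 1. Without MP 1 it was called lower, by -7.80 on the log2 scale (edgeR adjusted p = 0.00396).

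Most of the 56 members lower in MP had no MP listing at all, 42 of them. A loop could pass the filter through Naive libraries alone, and the same share over all CDR3s called lower is not given here. Among the more abundant ones, AIPSSNTNKVV held 0.0600 to 0.170% of Naive reads and AAKSSNTNKVV 0.0862 to 0.155%, and MP was at least 264-fold and at least 240-fold lower. ALTSSNTNKVV was listed in MP 1 and 5 at up to 0.00395%, against 0.131 to 0.171% in Naive (log2 fold change -6.89 ± 1.68, edgeR adjusted p = 0.00618). AMSSNTNKVV, at 0.0361 and 0.0469% in MP 1 and 5, against 0.105 to 0.186% in Naive, did not pass (log2 fold change -3.09 ± 1.86, edgeR adjusted p = 0.180), and without both of these MP libraries it was called lower by -12.77.

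Of the 5 largest falls among called loops listed in both subsets, 3 rest on 2 MP reads. ALLSSNTNKVV had 2 reads in MP 1, against 0.0412 to 0.126% of reads in Naive, a Naive over MP ratio of 2280 with a 95% counting interval of 631 to 18829. AAFSSNTNKVV and ARGSSNTNKVV also had 2 reads in MP 1 alone, and their Naive over MP ratios were 431 (119 to 3555) and 256 (70.9 to 2115). AIASSNTNKVV had 5 MP reads and ALGLSSNTNKVV 15, both in MP 5, with log2 fold changes of -8.77 and -7.53 (edgeR adjusted p = 0.00102 and 0.00743). ALGLSSNTNKVV carries an extra leucine between ALG and the end, and it moved opposite to ALGSSNTNKVV.

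Calls were also counted by the residue before the end, beside 12.6% higher and 48.1% lower in MP of all CDR3s tested. Of 19 tested members with glycine there, 6 were higher and 4 lower in MP. Of 12 with alanine, 4 were higher and 3 lower. The higher ones include TLGSSNTNKVV, SLGSSNTNKVV and DLGSSNTNKVV with glycine and TLASSNTNKVV with alanine. Whether these are reading errors of ALGSSNTNKVV and ALASSNTNKVV was not tested. With proline 2 of 24 were higher and 16 lower. With threonine 0 of 8 were higher and 5 lower, and with serine 0 of 16 were higher, 3 were lower and 13 did not pass. Hydrophobic residues had 4 higher and 18 lower of 36. By beginning, 5 of 28 alanine-leucine loops were higher and 10 lower, and of 10 alanine-alanine loops 0 were higher and 6 lower. The classes are small and their differences from the share of all CDR3s were not tested.

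**Figure D5:**
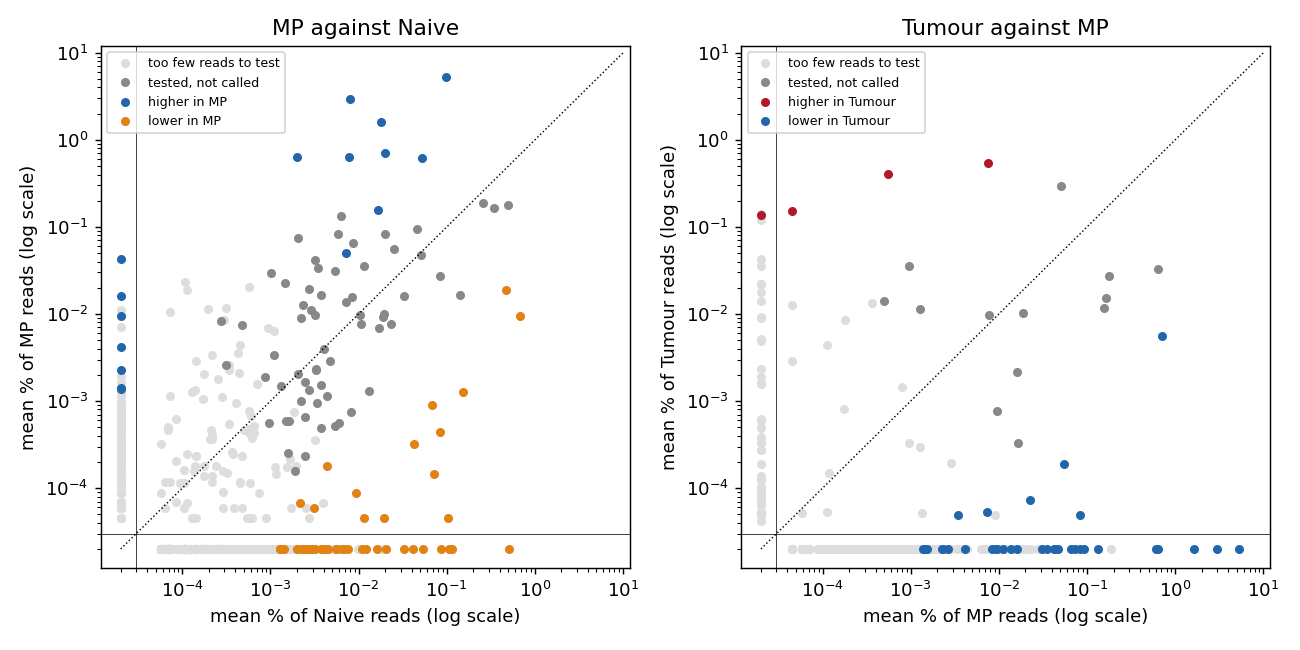
Mean share of reads per member, MP against Naive (left) and Tumour against MP (right), on log axes; each point is 1 member, coloured by its edgeR call, and members not listed in a group are set beyond the thin line at its margin. Loops higher in MP reach 5.31% of MP reads, and in the right panel 37 of the 290 members listed in MP lie above the lower margin, at which members without a Tumour listing stand.

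The next comparisons ask which members the tumours hold in place of those of MP and of Naive. They share the Tumour libraries and were each fitted alone. Against MP, 339 members were listed in either group and 51 could be tested: 4 were higher in Tumour, 7.84% against 7.68% of all 1666 CDR3s tested, and 34 were lower, 66.7% against 66% of all. Against Naive, 888 were listed in either and 117 tested: 5 were higher, 4.27% against 3.38% of all 4671, and 94 were lower, 80.3% against 86.7% of all. These shares lie near the background in both directions. Of the lower members, 28 against MP and 82 against Naive had no Tumour listing. These loops passed the filter through the other group alone, and the same shares over all CDR3s called lower are not given here. Without MP 1, 20 of 35 members tested were lower than in MP, 57.1% against 54.6% of all CDR3s tested. Without MP 4 it was 20 of 37, 54.1% against 60.5% of all.

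All members called higher in Tumour, against MP or Naive, began with alanine-alanine. AASSSNTNKVV held 0.606, 0.728, 0.687, 0.649 and 0.0588% of reads in Tumour 1 to 5, against 0.00658, 0.0192, 0, 0 and 0.0123% in MP 1 to 5 and 0.0101 to 0.0115% in Naive. Every tumour lay above every other library, and Tumour 5 was about an order of magnitude below the other tumours. The member was higher in Tumour by 6.16 ± 2.09 on the log2 scale against MP (edgeR adjusted p = 0.0183) and by 5.69 ± 0.73 against Naive (edgeR adjusted p = 6.04e-05). Between MP and Naive it did not pass (log2 fold change -0.47 ± 1.38, edgeR adjusted p = 0.788). The call against MP was lost without MP 1 and 5, and when library number was a block, with an edgeR adjusted p of up to 0.0897. Equal library numbers do not mark the same mouse in Tumour and in MP or Naive.

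AATSSNTNKVV, which differs from it by threonine for serine, was the other loop in all 5 tumours. Its share was 0.326, 0.177, 0.382, 0.920 and 0.232% of reads in Tumour 1 to 5. It was listed in MP 1 and 5, at 0.000567 and 0.00219%, and in Naive 1, at 0.00171%. No library of the other groups came near the lowest tumour, and it was higher in Tumour by 9.48 ± 2.31 against MP and 10.11 ± 2.00 against Naive on the log2 scale (edgeR adjusted p = 0.0107 and 0.000916). AASSSNTNKVV and AATSSNTNKVV together held 17.4 to 79.8% of the family's reads in a tumour, at most 0.124% in MP and at most 0.245% in Naive.

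The other called loops were missing from some tumours. AASESSNTNKVV held 0.0825, 0.368, 0, 0.244 and 0.0711% of reads in Tumour 1 to 5, against 2 reads in MP 1 and 2 reads each in Naive 1 and 4. Its Tumour over MP ratio was 3379 with a 95% counting interval of 935 to 27898 (edgeR adjusted p = 0.0107), and against Naive it was higher by 10.01 ± 2.22 on the log2 scale (edgeR adjusted p = 0.00189). AAASSNTNKVV held 0.000804, 0.305, 0, 0.340 and 0.0345% in Tumour 1 to 5, was not listed in MP and reached 0.00209% in Naive. Tumour exceeded MP at least 311-fold (edgeR adjusted p = 0.0152) and Naive by 7.51 ± 2.44 on the log2 scale (edgeR adjusted p = 0.0143). The call against MP was lost without MP 1 and 5 (edgeR adjusted p = 0.0569), and that against Naive without Naive 1 and 5 and with a block on library number, at adjusted p of up to 0.199. AADSSNTNKVV, at 0.0532% in Tumour 1 and 0.164% in Tumour 4, was called against Naive (log2 fold change 6.61 ± 2.82, edgeR adjusted p = 0.0460), and 7 of 12 alternatives ended that call, among them leaving out Naive 1, 2, 3 or 4, with an adjusted p of up to 0.853.

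Several abundant Tumour members belonged to 1 or 2 tumours. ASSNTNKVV held 1.47% of reads in Tumour 2 and was listed in no other tumour, and it was not called against MP or Naive (edgeR adjusted p = 0.409 and 0.121); without Tumour 2 its log2 fold changes turned to -11.54 and -8.63. AAQSSNTNKVV held 0.0922% in Tumour 4 and 0.621% in Tumour 5 and was listed in no MP or Naive library, which makes it at least 326-fold and at least 284-fold higher in these means, with too few libraries to test. ALTQSSNTNKVV held 0.593% in Tumour 5, ALPPSSNTNKVV 0.179% in Tumour 4, and AGTSSNTNKVV 0.0200% in Tumour 1 and 0.159% in Tumour 3. These values describe single tumours.

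The MP-leading loops were nearly all missing in tumours. Of the 7, AMGSSNTNKVV and ALVSSNTNKVV were listed in a Tumour library and the other 5 were not. ALVSSNTNKVV held 0.0690% in Tumour 1 and 0.0939% in Tumour 4 and was not called against MP (log2 fold change -4.28 ± 2.31, edgeR adjusted p = 0.112). AMGSSNTNKVV was called lower than in MP (log2 fold change -6.98 ± 2.66, edgeR adjusted p = 0.0299), a call that was lost without MP 1, without MP 2 and without MP 5, at adjusted p of up to 0.101. Of the others, AMASSNTNKVV was at least 4147-fold, AMDPSSNTNKVV at least 1646-fold and AIVPSSNTNKVV at least 1569-fold lower in Tumour than in MP (edgeR adjusted p = 0.0101 each). The 7 summed to 0.0967% of reads in Tumour 1, 0.0939% in Tumour 4 and 0 in the other tumours.

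Members were shared unequally within and between groups. Across libraries, 86 members were listed in Tumour, 290 in MP and 863 in Naive, 32 in all 3 groups and 0 in all 15 libraries. Listed in all 5 libraries of their group were 2 members in Tumour, 28 in MP and 92 in Naive, and they carried 46.2 ± 24.6, 91.4 ± 2.43 and 89.5 ± 5.57% of the family's reads. Of the other CDR3s, 68 of 6060 in Tumour, 455 of 25149 in MP and 4348 of 73085 in Naive were listed in all 5, and carried 35.2, 61.4 and 78.2% of those reads. Members listed in 1 library were 68 in Tumour, 191 in MP and 496 in Naive, with 26.8, 1.51 and 1.84% of the family's reads. Among the other CDR3s, those listed in 1 library carried 35.5% of reads in Tumour, 14% in MP and 8.60% in Naive.

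The overlap between groups looked different from each side. Of the Tumour members, 37 were also listed in MP, which is 43.0% of the Tumour list and 12.8% of the MP list, against 25.5 and 6.14% for the other CDR3s. With Naive they shared 61, which is 70.9% of the Tumour list and 7.07% of the Naive list, against 34.5 and 2.86% for the other CDR3s. MP and Naive shared 179 members, 61.7% of the MP list and 20.7% of the Naive list, against 42.2 and 14.5% for the other CDR3s. These shares of listed loops were higher in the family than outside it, and the difference was not tested. By reads, members also listed in Naive held 99.1 ± 0.234% of the MP family, where the other CDR3s had 83.6 ± 1.08%. Members also listed in MP held 73.5 ± 4.31% of the Naive family, where the other CDR3s had 66.8 ± 0.911%. Between MP and Tumour the order turned by reads. Members also listed in Tumour held 14.6 ± 1.22% of the MP family, where the other CDR3s had 51.4 ± 2.06%. In the Naive family they held 57.8 ± 6.26%, against 24.2 ± 0.993%. Of the Tumour family, members also listed in MP held 71.1 ± 27.3%, against 54.0 ± 10.3%. Those also listed in Naive held 85.4 ± 14.5%, against 57.8 ± 12.9%. The leading MP loops were listed in Naive libraries at low levels. Members listed in Naive alone, 655 of them, held 14.2 ± 3.67% of the Naive family's reads, where the other CDR3s listed in Naive alone held 31.5 ± 0.893% of their reads (SD, n = 5 each).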

How the data were processed

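TCR alpha CDR3s were measured in 15 libraries, 5 each of Tumour, MP and Naive, from sorted CD8+ T cells. Per the labels' protocols, RNA was amplified by arm-PCR, a multiplex RT-PCR of iRepertoire. The authors deposited read counts per CDR3 peptide, without normalization, 1 list per library. No source used here gives the alignment, CDR3 calling, error filter or molecular identifiers. Depth was the total count of a library.

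Each pair of groups was fitted alone with edgeR 4.0.16 (limma 3.58.1, R 4.3.3): quasi-likelihood, robust, total reads as library size, a minimum of 10 reads in 3 or more libraries, Benjamini-Hochberg adjusted p under 0.05 over all CDR3s tested. The fit was run on simulated counts for MP against Naive alone. These gave every CDR3 and both groups the same dispersion, unlike the real libraries, so that they do not bear on the Tumour fits. Whether replicates are separate mice is stated in the design text alone. Where it does not hold, p-values measure technical spread. Folds against an unlisted group used 3 reads per library. Python 3.11.15 with pandas 2.3.3 and numpy 2.4.6 gave the shares, and matplotlib 3.10.9 the plots. Replicate libraries all differed beyond sampling noise, the closest being Naive 1 and 3 with a chi-square of 7.61 per degree of freedom.

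Named loops were the 10 with the highest mean share in each group, and the 5 largest folds each way among those called between MP and Naive and listed in both. The rest of the 16 loops higher in MP, and all loops called higher in Tumour, were named after their values were seen, as was the bare end. The members and lists were chosen with earlier results of these data known. Alternatives were TMM, DESeq2 1.42.0, filters of at least 50 reads or of at least 1 read in 2 libraries (called no filter), the library number as a block, each library left out, and, chosen after seeing the data, MP 1 and 5 or Naive 1 and 5 left out together and possible reading errors (1 residue from a loop at least 100 times as abundant) folded into that loop.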

Additional observations from a re-analysis of the deposited data

Results flagged for a closer look

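In 149 sets of 5 values, 27 had 1 library far from the other 4 by Dixon's test at a critical value of 0.71. Chance gives this distance in about 1 in 20 sets of normally distributed values. Many sets here are not of that kind. A share that is 0 in all but 1 library is flagged by construction, as for several lengths below. The number flagged therefore cannot be set against that rate. Of all NTNKVV reads, the full end held 69.7% in MP 4, against 77.1 to 79.2% in the other MP libraries. Several first-residue shares of the family's reads stood apart in a tumour: alanine-isoleucine 11.3%, alanine-methionine 1.66% and alanine-proline 2.90% in Tumour 1, and other beginnings 45.3% in Tumour 2. By the residue before the end, alanine held 55.9% in Tumour 2, residues outside the named classes 72.8% in Tumour 5, and glycine 1.74% in Tumour 1 and 4.04% in Naive 1. By length, 9 residues held 44.7% and 13 residues 0.0195% of the family's reads in Tumour 2, 10 residues 7.53% in Tumour 1, 15 residues 0.303% in Tumour 4, 14 residues 0.212% in MP 3 and 17 residues 0.0264% in Naive 1.

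Among single loops, the shares of library reads that stood apart in tumours were AAQSSNTNKVV at 0.621% in Tumour 5, AASSSNTNKVV at 0.0588% in Tumour 5, AATSSNTNKVV at 0.920% in Tumour 4 and AGTSSNTNKVV at 0.159% in Tumour 3. In MP they were AATSSNTNKVV at 0.00219% in MP 5, AFSSNTNKVV at 0.941% in MP 1, ALPSSNTNKVV at 0.0845% in MP 3 and AVSSSNTNKVV at 0.0343% in MP 2. In Naive they were AAKSSNTNKVV at 0.155% in Naive 4, ALLSSNTNKVV at 0.0412% in Naive 5, ALSSSNTNKVV at 0.435% in Naive 2 and ALVSSNTNKVV at 0.00760% in Naive 4. The causes of these values were not tested.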

How the results depend on the processing

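Of the 48 calls on named loops, 39 held in every alternative that could be fitted, 9 were lost in at least 1 and 0 reversed; the cause was not tested. Counts of called members follow the filter by construction: at least 50 reads gave 21 lower in MP than in Naive, 16 lower in Tumour than in MP and 35 lower in Tumour than in Naive, and no filter gave 39 higher and 230 lower, 11 higher and 76 lower, and 321 lower, in the same order. In the same order the lower share with at least 50 reads was 35.6, 59.3 and 68.6% of members tested, against 48.6, 60.8 and 79.7% of all CDR3s tested, and with no filter 54.1, 62.8 and 83.6%, against 51.7, 66.9 and 90.3%. With fewer libraries, leaving out MP 1 and 5 gave 2 members higher and 12 members lower in Tumour than in MP, and leaving out Naive 1 and 5 gave 35 lower in MP than in Naive, and 3 members higher and 58 members lower in Tumour than in Naive. The lower shares were 46.2, 32.4 and 72.5% of members, against 35.05, 33.8 and 80.0% of all. Leaving out each library in turn gave 20 to 38 lower in Tumour than in MP. That is 54.1 to 76% of members tested, against 54.1 to 78.9% of all. With reading errors folded, 22 of 36 were lower in Tumour than in MP, 61.1% against 67.0% of all. Folding removed 20 to 53.3% of a library's members in Tumour, 22.5 to 48.8% in MP and 15.5 to 22% in Naive.

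With the library number as a replicate block, 13 members were higher and 62 lower in MP than in Naive (9.63 and 45.9% of members tested, against 10.3 and 51.2% of all CDR3s tested), 3 and 14 in Tumour than in MP (5.88 and 27.5%, against 3.42 and 15.9% of all), and 3 and 105 in Tumour than in Naive (2.56 and 89.7%, against 2.68 and 91.2% of all). Tumour libraries came from other mice than MP and Naive libraries, so that in their comparisons the block links unrelated libraries. With the block the calls on AIVPSSNTNKVV and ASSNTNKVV in MP against Naive were lost. Same-numbered MP and Naive libraries deviated together at a correlation of 0.0125 to 0.0470, all positive. Libraries of unlike number had -0.0507 to 0.0339. MP 3 correlated best with Naive 4, the other MP libraries with their own number. These correlations are small and do not settle whether equal numbers share a mouse. The main fit took no pairs, and the block is given as the alternative. DESeq2 gave no adjusted p to 9, 5 and 3 members tested. TMM shifted the median of all CDR3s by 0.16 in MP against Naive, -1.49 in Tumour against MP and -1.05 in Tumour against Naive (log2).

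Uncalled log2 fold changes reversed for ALTSSNTNKVV, Tumour over MP, at -0.11 with TMM and -0.18 with the block. Those of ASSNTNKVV fell to -9.81 over MP and -7.41 over Naive with the block, and spanned -11.54 to 3.14 over MP and -8.63 to 5.67 over Naive with each library left out, the low ends without Tumour 2. That of ALPSSNTNKVV, Tumour over MP, spanned -10.09 without Tumour 4 to 2.25 without MP 3. Without CDR3s under 10 reads, Naive libraries listed 144.8 members on average. Of 78 composition values, each for 1 class in 1 group, 12 stayed within 1 SD when weighted by distinct members. The other 66 were counted as moved, but they include classes empty in a group, where value and SD were 0 and nothing changed. Loops under 2 reads are not listed, which limits every statement on missing loops.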
